A study of Mus musculus with 8 samples.

Results

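The genes described here are 39 genes of the NRF2 and glutathione antioxidant system, taken by symbol from a table of read counts per gene with 24883 usable entries. All 39 were found in the table, and 38 of them were among the 12879 genes with enough counts to be tested. The exception was Mgst1, a membrane-bound glutathione S-transferase, which had at most 2 counts in any library. The cells were ASZ001, a mouse basal cell carcinoma line that carried a doxycycline-inducible vector, and the mRNA data comprise 8 libraries in 4 groups of 2. The c-Fos afatinib group had the vector with c-FOS, doxycycline for 24 h and then 5 µM afatinib, an irreversible inhibitor of the EGFR family of receptors, for 6 h. The c-Fos UO126 group had the same vector and doxycycline and then 10 µM UO126, an inhibitor of the kinases MEK1 and MEK2, for 6 h. The c-Fos DMSO group had the same vector and doxycycline and then the vehicle DMSO for 6 h. The empty vector group had the vector without c-FOS and doxycycline for 24 h, and its labels name neither a vehicle nor the 6 h step, so c-FOS and those steps cannot be told apart in the comparison with it. All 4 groups therefore shared doxycycline. The sources used here do not give whether the transfected cells were 1 clone, which species the c-FOS sequence came from, or whether both libraries of a group were grown as separate cultures. P-values thus reflect only how far these libraries differed within groups, a spread that may be technical.

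NRF2, encoded by Nfe2l2, is a transcription factor that the adaptor KEAP1 marks for degradation until electrophiles or oxidants modify KEAP1. NRF2 then pairs with a small MAF protein at antioxidant response elements, which the repressor BACH1 also binds, and switches on genes that make and recycle glutathione and thioredoxin, supply NADPH, break down heme, store iron and detoxify reactive compounds. In keratinocytes and the tumours that arise from them the system is known for limiting oxidative damage and for its part in drug resistance. The protein c-FOS pairs with JUN proteins as AP-1, whose binding site shares letters with the antioxidant response element.

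Total counts ran from 17901974 to 23126048 per library, with the lowest totals in the DMSO libraries, and the 39 genes took 0.548% to 0.667% of a library. Levels are in CPM, that is counts relative to the scaled library size, and a gene was called higher or lower when the edgeR quasi-likelihood test gave an adjusted p under 0.05. Fos, the induced gene, stood at 1107 and 1081 CPM with afatinib, 813 and 875 CPM with UO126, 1163 and 1120.5 CPM with DMSO and 40.6 and 50.5 CPM with the empty vector. With DMSO against the empty vector its log2 fold change was 4.65 ± 0.10 (edgeR adjusted p = 2.61e-12), with afatinib against DMSO it was -0.06 ± 0.08 (edgeR adjusted p = 0.565), and with UO126 against DMSO it was -0.44 ± 0.08 (edgeR adjusted p = 0.00148). The keratinocyte keratins Krt5 and Krt14 were abundant, and the general epithelial genes Cdh1 and Epcam were present in every library. Summed levels of 11 keratinocyte and basal cell carcinoma markers, 10 of them tested, were 16175 to 16480.1 CPM with afatinib and 19625 to 20591 CPM with UO126. The sums were 18165 to 18979 CPM with DMSO and 17456 to 17569 CPM with the empty vector, with no overlap between groups. Of these, Hhip, a target of the Hedgehog pathway, was at or near 0. With DMSO against the empty vector 2 of the 10 tested were called higher and 4 lower, against 21.5% and 20.7% of all genes tested. Krt5 and Krt14 held most of the sum. Krt14 stood at 7499 and 7827 CPM with DMSO and 5499 and 5456 CPM with the empty vector. Krt17 was at 1749 and 1851 CPM with DMSO and 2603 and 2732 CPM with the empty vector. Trp63 was at 169 and 171 CPM and at 291 and 281 CPM, in that order of groups. Among 5 endothelial markers 3 were tested, and the sum was 146 to 147 CPM with afatinib, 138 to 143 CPM with UO126, 153 to 168 CPM with DMSO and 101 to 110.1 CPM with the empty vector, with Kdr at 0 in every library and Cdh5 at or near 0. Among 8 fibroblast markers 4 were tested, with sums of 7.10 to 7.16 CPM with afatinib, 9.38 to 10.7 CPM with UO126, 8.22 to 9.09 CPM with DMSO and 5.02 to 5.29 CPM with the empty vector and with Lum and Thy1 at 0. Among 7 leukocyte markers 2 were tested, with sums of 8.53 to 8.96 CPM with afatinib, 7.86 to 9.36 CPM with UO126, 6.14 to 6.80 CPM with DMSO and 5.39 to 6.10 CPM with the empty vector and with Tyrobp and Adgre1 at 0. Among 5 melanocyte markers 2 were tested, with sums of 40.6 to 45.4 CPM with afatinib, 53.1 to 65.1 CPM with UO126, 44.2 to 47.6 CPM with DMSO and 52.1 to 60.9 CPM with the empty vector and with Tyr at 0. Most of the endothelial sum came from Flt1 and Pecam1, and most of the melanocyte sum from Mitf and Pmel. Col1a2 and Dcn held most of the fibroblast sum, and Cd68 and Csf1r most of the leukocyte sum. Flt1 stood at 108 and 97.5 CPM with DMSO and 38.4 and 32.5 CPM with the empty vector. For Pecam1 these were 58.9 and 55.3 CPM and 70.9 and 68.2 CPM. For Mitf they were 38.7 and 34.0 CPM and 53.9 and 43.8 CPM. The sums of all 5 lists differed between some of the groups, and their part in the results was not tested. In these bulk libraries, fewer cells of a type and less RNA per cell cannot be told apart.

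The sequences upstream of 4 of the genes are shown as examples that hold the letters of an antioxidant response element or of an AP-1 site. Other genes of this section hold such letters as well. RefSeq promoter windows of build GRCm38.p6, each with 250 bases before and 50 bases from the start of a transcript, matched 33 of the 39 genes in 48 windows. The 6 genes with no entry were Hmox1, Gclc, Gsr, Prdx6, Gsta4 and Abcc1. The core letters of the antioxidant response element, TGACNNNGC on either strand, were in 12 of the 48 windows (25%) and in 4071 of all 32851 windows (12.4%). The AP-1 letters TGANTCA, which are their own reverse complement, were in 5 of the 48 windows (10.4%) and in 2565 of all windows (7.81%). By gene, 11 of the 33 held the antioxidant letters, against 14% of all genes, and 5 held the AP-1 letters, against 8.97%. Besides the genes shown, Nfe2l2, Txnrd1, Sod1, Mgst1, G6pdx, Pgd and Abcc4 held only the antioxidant letters. Gstp1 held only the AP-1 letters, and Gstm5 held both. The genes shown thus hold AP-1 letters more often than the rest. The 250 bases before the start are printed in the direction of transcription for Srxn1 (chr2:152105274-152105523, + strand), Prdx1 (chr4:116685349-116685598, + strand), Gclm (chr3:122245307-122245556, + strand) and Osgin1 (chr8:119436897-119437146, + strand), with motif matches in capitals.
Srxn1: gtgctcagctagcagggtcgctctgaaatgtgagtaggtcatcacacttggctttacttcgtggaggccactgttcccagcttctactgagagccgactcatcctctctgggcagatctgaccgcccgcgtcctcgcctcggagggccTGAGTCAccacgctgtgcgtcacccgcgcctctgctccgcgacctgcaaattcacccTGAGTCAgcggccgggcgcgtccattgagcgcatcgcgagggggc
Prdx1: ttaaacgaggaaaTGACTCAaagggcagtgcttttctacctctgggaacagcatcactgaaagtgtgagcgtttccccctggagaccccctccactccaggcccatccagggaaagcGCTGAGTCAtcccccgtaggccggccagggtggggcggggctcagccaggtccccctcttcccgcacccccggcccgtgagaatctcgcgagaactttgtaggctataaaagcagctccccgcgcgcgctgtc
Gclm: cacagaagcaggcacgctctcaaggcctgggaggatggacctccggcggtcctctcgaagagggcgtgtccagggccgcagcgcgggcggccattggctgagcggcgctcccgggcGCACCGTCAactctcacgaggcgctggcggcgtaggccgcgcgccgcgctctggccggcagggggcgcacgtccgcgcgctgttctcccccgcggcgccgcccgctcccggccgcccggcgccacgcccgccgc
Osgin1: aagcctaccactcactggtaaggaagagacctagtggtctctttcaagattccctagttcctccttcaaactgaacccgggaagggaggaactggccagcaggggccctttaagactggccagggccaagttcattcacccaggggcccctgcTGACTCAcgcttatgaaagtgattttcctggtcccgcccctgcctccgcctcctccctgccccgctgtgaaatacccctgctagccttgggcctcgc
Counting the first transcribed base as 1 and the base before it as -1, Srxn1 held the AP-1 letters at -102 and -45, and the antioxidant letters at 29, past the printed stretch. Prdx1 held the AP-1 letters at -237, and at -131 in a run that overlaps the antioxidant letters on the other strand at -133. Gclm held only the antioxidant letters, at -134 on the other strand, and Osgin1 only the AP-1 letters, at -97. A match is a description of the sequence and shows neither binding nor a cause of any value below.

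With c-FOS induced, the largest rises were those of Srxn1, Gsto1, Sod1, Gsr and Txn1, and the largest falls those of Osgin1, Gstm1, Gsta4 and Cbr1. In c-Fos DMSO cells against empty vector cells, 12 of the 38 tested genes were called higher, against 21.5% of all genes tested, and 10 were called lower, against 20.7% of all. The median log2 fold change of the 38 was 0.06, and that of all genes tested was -0.01. The called changes spanned 0.22 to 1.14 among the higher genes and -1.26 to -0.25 among the lower ones.

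With afatinib, Hmox1 rose most, followed by Gstm1, Srxn1 and Gclc, and few genes fell. Against DMSO, 17 of the 38 tested genes were called higher, against 21.2% of all genes tested, and 3 were called lower, namely Gpx1, Prdx6 and Gstp1, against 21.5% of all. The median log2 fold change of the 38 was 0.19, and that of all genes tested was -0.00028. The count of lower genes was 5 without UO126 replicate 2, when Tkt and Txn1 passed as well. Over all genes the lower calls in that fit were 3205 of 13061, against 2772 of 12879.

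With UO126, Osgin1, Hmox1 and Srxn1 led the higher genes, and the lower genes changed little. Against DMSO, 11 of the 38 were called higher, against 13.9% of all genes tested, and 6 were called lower, against 14.7% of all. The median log2 fold change of the 38 was 0.09, and that of all genes tested was 0.0021. Without DMSO replicate 2 only 1 gene was called lower, and at an adjusted p under 0.01 there were 2. Over all genes the lower calls fell as well, to 968 of 13142 without that library and to 1144 of 12879 at 0.01, against 1893 of 12879.

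Afatinib and UO126 were also set against each other, since afatinib acts at the receptors and UO126 further down the pathway. Hmox1, Gstm1, Gclc and Ephx1 were among the genes higher with afatinib than with UO126. Of the 38 genes 9 were called higher with afatinib, against 7.14% of all genes tested, and 0 were called lower, against 7.14% of all. By edgeR 2 genes were lower at an unadjusted p under 0.05, and DESeq2 also called 0 lower. The median log2 fold change of the 38 was 0.05, and that of all genes tested was -0.0018. The count of 9 was 3 without afatinib replicate 1, when Hmox1, Gclc and Ephx1 passed, and 5 with only the 4 libraries compared. Over all genes the higher calls fell to 432 of 13136 and to 481 of 12633 in these fits, against 919 of 12879. The c-Fos DMSO libraries enter 3 of the comparisons, so changes that oppose each other between c-FOS and an inhibitor share those libraries.

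**Figure D1:**
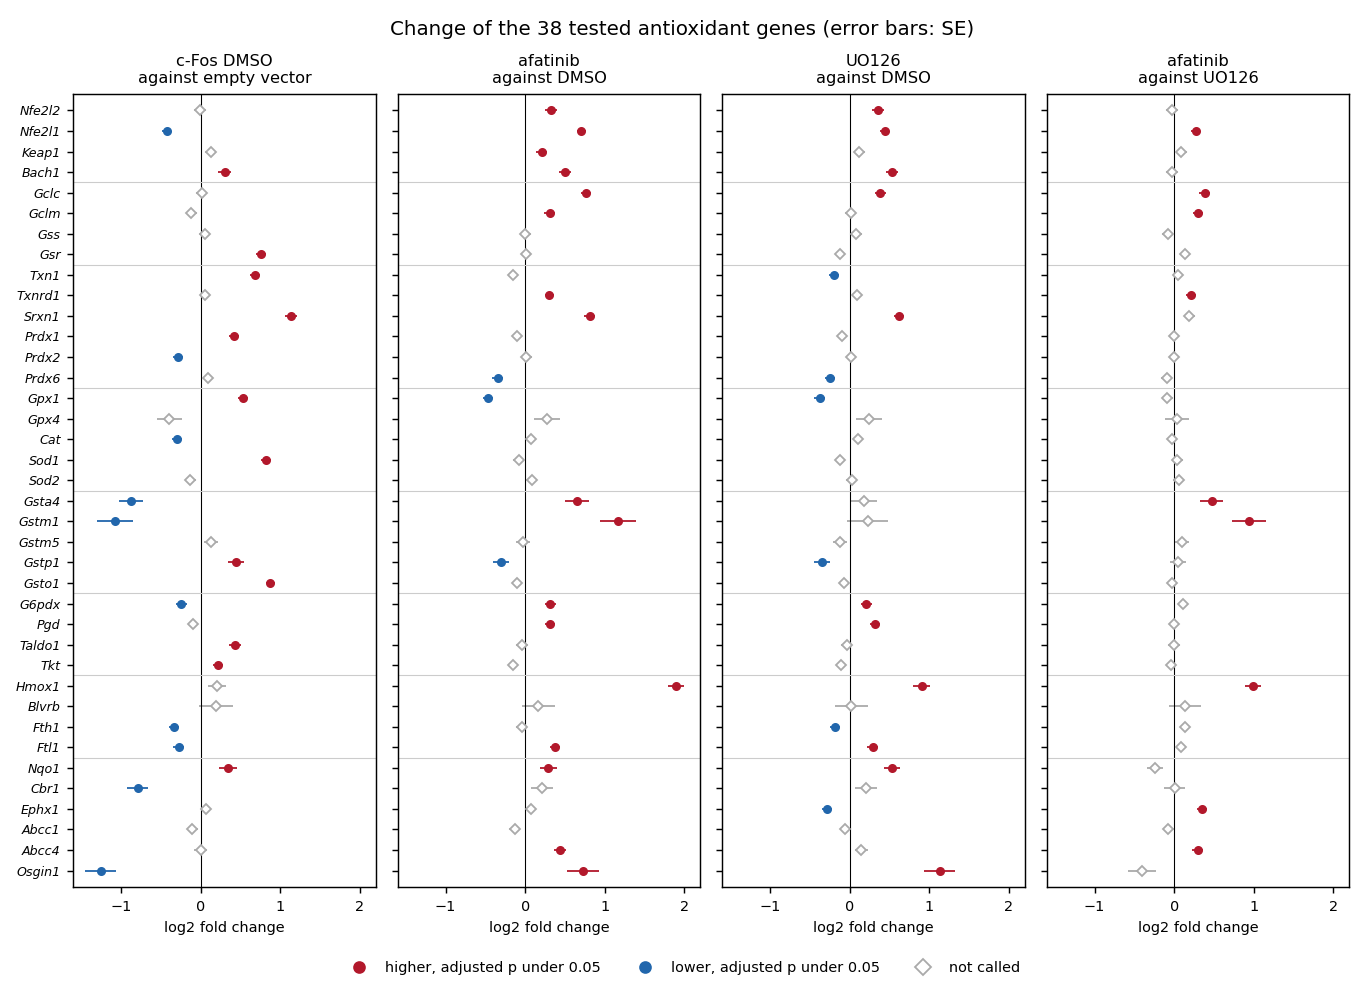
Log2 fold change with its SE for the 38 tested genes in the 4 comparisons, ordered by role, with grey lines between roles. Filled points passed an adjusted p under 0.05 (red higher, blue lower) and open diamonds did not. In the panel of afatinib against DMSO 17 genes lie in red and 3 in blue, and in that of afatinib against UO126 9 lie in red and 0 in blue.

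Of the regulators, Nfe2l2, Nfe2l1 and Bach1 were higher with both inhibitors, and Keap1 with afatinib. Nfe2l2, the gene of NRF2, stood at 79.6 and 80.4 CPM with afatinib, 86.5 and 76.5 CPM with UO126, 62.9 and 64.8 CPM with DMSO and 66.5 and 62.0 CPM with the empty vector. All 4 inhibitor libraries were above the DMSO and empty vector libraries, and DMSO and empty vector overlapped. Its log2 fold change was 0.33 ± 0.07 (edgeR adjusted p = 0.00322) with afatinib and 0.35 ± 0.07 (edgeR adjusted p = 0.00324) with UO126 against DMSO, and -0.01 ± 0.08 (edgeR adjusted p = 0.932) with DMSO against the empty vector.

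Nfe2l1, which encodes the related factor NRF1 that drives proteasome genes, stood at 744 and 696 CPM with afatinib, 596 and 599.9 CPM with UO126, 447 and 436 CPM with DMSO and 596 and 591 CPM with the empty vector. The DMSO libraries were the lowest and the afatinib libraries the highest, and UO126 lay close to the empty vector. Nfe2l1 was at -0.43 ± 0.06 (edgeR adjusted p = 5.42e-05) with DMSO against the empty vector, at 0.71 ± 0.06 (edgeR adjusted p = 6.81e-07) with afatinib and 0.44 ± 0.06 (edgeR adjusted p = 0.000106) with UO126 against DMSO, and at 0.27 ± 0.06 (edgeR adjusted p = 0.00751) with afatinib against UO126. Nfe2l1 was the only gene of the 38 called in all 4 comparisons, but it was not called between the inhibitors without afatinib replicate 1 (edgeR adjusted p = 0.0793).

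Keap1, the adaptor that marks NRF2 for degradation, stood at 110.0 and 107 CPM with afatinib, 97.2 and 107 CPM with UO126, 92.6 and 95.2 CPM with DMSO and 84.1 and 87.7 CPM with the empty vector. The groups lay close together, and 1 UO126 library reached the afatinib values. Keap1 was called only with afatinib against DMSO, at 0.21 ± 0.07 (edgeR adjusted p = 0.0248), and lost that call without DMSO replicate 1 (edgeR adjusted p = 0.119), without DMSO replicate 2 (0.0589), without afatinib replicate 1 (0.0889) and without afatinib replicate 2 (0.0501). Keap1 passed with UO126 against DMSO without UO126 replicate 1 (edgeR adjusted p = 0.0389), and with DMSO against the empty vector without UO126 replicate 2 (edgeR adjusted p = 0.0485).

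Bach1, the repressor at antioxidant response elements, stood at 79.2 and 85.1 CPM with afatinib, 83.1 and 85.1 CPM with UO126, 61.0 and 55.1 CPM with DMSO and 49.6 and 44.5 CPM with the empty vector. All inhibitor libraries were above DMSO, and DMSO was above the empty vector. Its log2 fold change was 0.50 ± 0.08 (edgeR adjusted p = 0.000175) with afatinib and 0.53 ± 0.08 (edgeR adjusted p = 0.000225) with UO126 against DMSO. With DMSO against the empty vector it was 0.30 ± 0.08 (edgeR adjusted p = 0.0077), a call that ended without DMSO replicate 1 (edgeR adjusted p = 0.0675) and without empty vector replicate 2 (0.0966).

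Of the genes that make and reduce glutathione, Gclc and Gclm were higher with afatinib and Gsr was higher with c-FOS. Gclc, the catalytic subunit of glutamate-cysteine ligase, which makes the rate-limiting step of synthesis, stood at 175 and 176 CPM with afatinib, 139.6 and 130.3 CPM with UO126, 106 and 100.3 CPM with DMSO and 104 and 100.4 CPM with the empty vector. Afatinib libraries were above UO126 libraries, which were above DMSO, while DMSO overlapped the empty vector. Gclc was at 0.77 ± 0.06 (edgeR adjusted p = 9.06e-07) with afatinib and 0.39 ± 0.07 (edgeR adjusted p = 0.000667) with UO126 against DMSO, at 0.38 ± 0.06 (edgeR adjusted p = 0.0017) with afatinib against UO126, and at 0.01 ± 0.07 (edgeR adjusted p = 0.912) with DMSO against the empty vector.

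Gclm, the modifier subunit of the same ligase, ranged from 44.5 to 57.5 CPM over all libraries, and was at 0.31 ± 0.07 (edgeR adjusted p = 0.0028) with afatinib against DMSO and at 0.30 ± 0.07 (edgeR adjusted p = 0.0111) with afatinib against UO126. Gclm lost the second of these calls without afatinib replicate 1 (edgeR adjusted p = 0.0894) and with only the 4 libraries compared (0.0534). With UO126 against DMSO it was at 0.01 ± 0.07, which did not pass. Gss, glutathione synthetase, which adds the last residue, passed in no comparison and lay between 56.6 and 63.4 CPM.

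Gsr, the reductase that regenerates glutathione with NADPH, stood at 184 and 186 CPM with afatinib, 171 and 167 CPM with UO126, 179 and 188 CPM with DMSO and 104 and 114 CPM with the empty vector. Every c-Fos library was above both empty vector libraries, and the c-Fos groups lay close together. Gsr was at 0.75 ± 0.07 (edgeR adjusted p = 7.71e-07) with DMSO against the empty vector, and at 0.01 ± 0.06 (edgeR adjusted p = 0.893) with afatinib and -0.12 ± 0.06 (edgeR adjusted p = 0.188) with UO126 against DMSO.

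In the thioredoxin and peroxiredoxin group, Srxn1 had the largest rise of the 38 with c-FOS and rose further with both inhibitors. Srxn1 encodes sulfiredoxin, which repairs over-oxidised peroxiredoxins, and its upstream sequence is the first of those printed above. It stood at 131 and 121 CPM with afatinib, 107 and 114 CPM with UO126, 72.3 and 71.7 CPM with DMSO and 31.9 and 33.6 CPM with the empty vector. The empty vector libraries were lowest, then DMSO, then both inhibitors, and no library of these 3 levels overlapped another level. Srxn1 was at 1.14 ± 0.07 (edgeR adjusted p = 4.48e-08) with DMSO against the empty vector, at 0.81 ± 0.07 (edgeR adjusted p = 9.43e-07) with afatinib and 0.62 ± 0.07 (edgeR adjusted p = 2.63e-05) with UO126 against DMSO. Between afatinib and UO126 it was at 0.19 ± 0.07 (edgeR adjusted p = 0.0765) and passed without UO126 replicate 2 (edgeR adjusted p = 0.0374).

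Txn1, thioredoxin, the small protein that hands electrons to peroxiredoxins, stood at 646 and 633 CPM with afatinib, 630.3 and 604 CPM with UO126, 688 and 730.1 CPM with DMSO and 430.1 and 455 CPM with the empty vector. All c-Fos libraries were above the empty vector, and DMSO libraries were the highest. Txn1 was at 0.68 ± 0.06 (edgeR adjusted p = 1e-06) with DMSO against the empty vector. With UO126 against DMSO it was at -0.20 ± 0.06 (edgeR adjusted p = 0.0229), a call that ended without DMSO replicate 2 (edgeR adjusted p = 0.234), without UO126 replicate 2 (0.0749) and with only the 4 libraries compared (0.0651). With afatinib against DMSO it was at -0.15 ± 0.06 (edgeR adjusted p = 0.06) and passed without UO126 replicate 2 (edgeR adjusted p = 0.0372).

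Txnrd1, the reductase of thioredoxin, ranged from 177 to 236 CPM and was at 0.30 ± 0.06 (edgeR adjusted p = 0.000994) with afatinib against DMSO. Against UO126 it was at 0.21 ± 0.06 (edgeR adjusted p = 0.0306), a call that ended without DMSO replicate 1 (edgeR adjusted p = 0.0501), without UO126 replicate 1 (0.0502), without afatinib replicate 1 (0.175), without afatinib replicate 2 (0.0727), without empty vector replicate 1 (0.0577) and with only the 4 libraries compared (0.114). Among the peroxiredoxins, which remove hydrogen peroxide, Prdx1 was at 0.42 ± 0.06 (edgeR adjusted p = 0.000102) and Prdx2 at -0.29 ± 0.06 (edgeR adjusted p = 0.00244) with DMSO against the empty vector, in opposite directions, and neither passed in another comparison. Prdx1 levels were 386 and 410.5 CPM with DMSO and 289.7 and 305 CPM with the empty vector. Prdx6, which uses glutathione and also acts on phospholipids, was at -0.35 ± 0.06 (edgeR adjusted p = 0.000748) with afatinib and -0.25 ± 0.06 (edgeR adjusted p = 0.0104) with UO126 against DMSO, and the second of these calls ended without DMSO replicate 2 (edgeR adjusted p = 0.126).

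**Figure D2:**
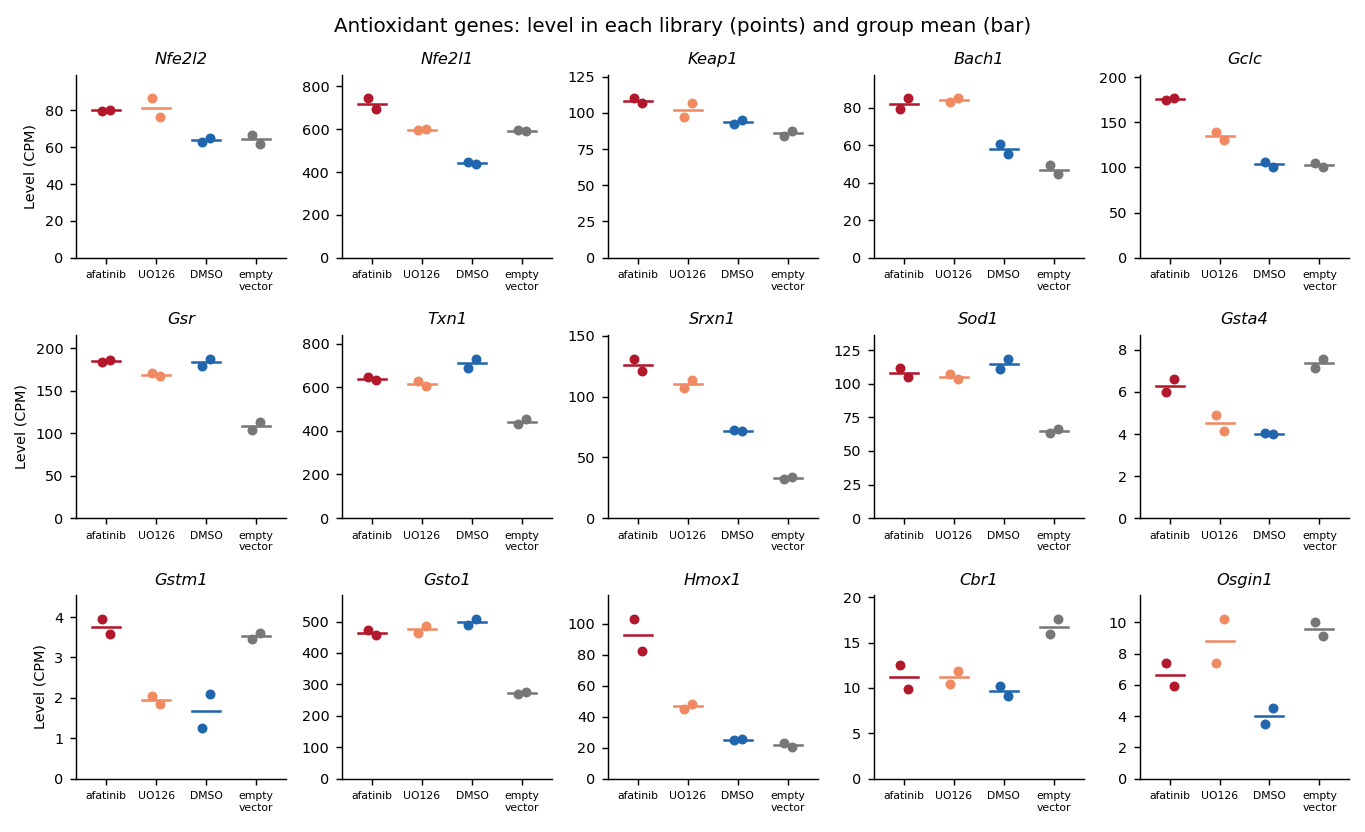
Level in CPM of 15 of the genes whose values are given for every library, with 1 point per library, a bar at the group mean and an axis that starts at 0 in each panel. Groups run from afatinib, UO126 and DMSO, all with c-FOS, to the empty vector. Gsr, Sod1 and Gsto1 are higher in all 6 c-Fos libraries than in the empty vector libraries, and Hmox1 is highest in the afatinib libraries.

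Among the enzymes that remove superoxide and peroxide, Sod1 and Gpx1 were higher and Cat was lower with c-FOS. Sod1, the cytosolic superoxide dismutase, stood at 112 and 105 CPM with afatinib, 107 and 104 CPM with UO126, 111 and 119 CPM with DMSO and 63.3 and 66.6 CPM with the empty vector. All c-Fos libraries were above the empty vector, and the 3 c-Fos groups overlapped or lay side by side. Sod1 was at 0.82 ± 0.07 (edgeR adjusted p = 5.44e-07) with DMSO against the empty vector and passed in no other comparison. Sod2, its mitochondrial relative, passed in none and lay between 78.8 and 90.2 CPM.

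Gpx1, a glutathione peroxidase, stood at 187 and 182 CPM with afatinib, 188 and 204 CPM with UO126, 253 and 257 CPM with DMSO and 170.5 and 182 CPM with the empty vector. The DMSO libraries were above all others, and afatinib, UO126 and the empty vector lay close together. Gpx1 was at 0.53 ± 0.06 (edgeR adjusted p = 1.89e-05) with DMSO against the empty vector, and at -0.46 ± 0.06 (edgeR adjusted p = 6.66e-05) with afatinib and -0.38 ± 0.06 (edgeR adjusted p = 0.000682) with UO126 against DMSO. Cat, catalase, was at -0.30 ± 0.06 (edgeR adjusted p = 0.00102) with DMSO against the empty vector and passed in no other comparison. Gpx4, which reduces lipid peroxides, had only 4.57 to 6.85 CPM. It was at -0.39 ± 0.16 (edgeR adjusted p = 0.0618) with DMSO against the empty vector and passed without UO126 replicate 1 (edgeR adjusted p = 0.0327), without UO126 replicate 2 (0.0429), with low counts left unfiltered (0.0285) and with only the 4 libraries compared (0.0307).

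Of 5 tested glutathione S-transferases, which join glutathione to reactive compounds, 2 were higher and 2 lower with c-FOS. Gsto1, of the omega class, stood at 472 and 456 CPM with afatinib, 465 and 485 CPM with UO126, 489.7 and 507 CPM with DMSO and 268 and 275 CPM with the empty vector. All c-Fos libraries were far above both empty vector libraries, and its log2 fold change was 0.88 ± 0.06 (edgeR adjusted p = 5.69e-08) with DMSO against the empty vector, with no call in another comparison. Gstp1, of the pi class, was at 0.44 ± 0.10 (edgeR adjusted p = 0.00331) in the same comparison.

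Gstp1 stood at 39.5 and 42.1 CPM with afatinib, 35.0 and 44.2 CPM with UO126, 49.9 and 50.9 CPM with DMSO and 38.9 and 35.3 CPM with the empty vector. The DMSO libraries were the highest, and UO126 spread over the afatinib values. With afatinib against DMSO Gstp1 was at -0.30 ± 0.10 (edgeR adjusted p = 0.0259), a call that ended without DMSO replicate 1 (edgeR adjusted p = 0.0904), without DMSO replicate 2 (0.155), without afatinib replicate 1 (0.186) and without afatinib replicate 2 (0.0836). With UO126 it was at -0.35 ± 0.10 (edgeR adjusted p = 0.0193), a call that ended without DMSO replicate 1 (edgeR adjusted p = 0.0798), without DMSO replicate 2 (0.127) and without UO126 replicate 1 (0.155), and without UO126 replicate 1 its log2 fold change was -0.17.

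Gsta4, which takes the lipid peroxidation product 4-hydroxynonenal, stood at 5.99 and 6.60 CPM with afatinib, 4.91 and 4.15 CPM with UO126, 4.03 and 3.98 CPM with DMSO and 7.14 and 7.57 CPM with the empty vector. Lowest were the DMSO libraries and highest the empty vector libraries, with afatinib between UO126 and the empty vector. Gsta4 was at -0.88 ± 0.15 (edgeR adjusted p = 0.000361) with DMSO against the empty vector and at 0.65 ± 0.15 (edgeR adjusted p = 0.00352) with afatinib against DMSO. Against UO126 it was at 0.47 ± 0.14 (edgeR adjusted p = 0.0424), but the call ended without DMSO replicate 1 (edgeR adjusted p = 0.0616), without DMSO replicate 2 (0.0544), without UO126 replicate 2 (0.167), without afatinib replicate 1 (0.0855), without afatinib replicate 2 (0.218), without empty vector replicate 1 (0.0651), without empty vector replicate 2 (0.0578), in the DESeq2 Wald test (0.186) and with only the 4 libraries compared (0.109).

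Gstm1, of the mu class, was barely counted, at 3.94 and 3.58 CPM with afatinib, 2.05 and 1.84 CPM with UO126, 1.25 and 2.10 CPM with DMSO and 3.46 and 3.59 CPM with the empty vector. The afatinib and empty vector libraries were all above the UO126 and DMSO libraries, and UO126 lay within the span of DMSO. Gstm1 was at -1.08 ± 0.23 (edgeR adjusted p = 0.00218) with DMSO against the empty vector, at 1.17 ± 0.23 (edgeR adjusted p = 0.00113) with afatinib against DMSO and at 0.94 ± 0.21 (edgeR adjusted p = 0.0105) with afatinib against UO126, and the last call ended without afatinib replicate 1 (edgeR adjusted p = 0.0731). Gstm5 passed in no comparison and lay between 21.6 and 24.7 CPM. The mu genes are close in sequence, and their counts may be shared, so the level of each is uncertain.

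Of the genes that supply NADPH through the pentose phosphate pathway, G6pdx was lower and Taldo1 and Tkt were higher with c-FOS. G6pdx, the entry enzyme, was at -0.25 ± 0.07 (edgeR adjusted p = 0.0109) with DMSO against the empty vector, and this call ended without DMSO replicate 2 (edgeR adjusted p = 0.107), without empty vector replicate 1 (0.0776) and without empty vector replicate 2 (0.0678). With afatinib against DMSO it was at 0.31 ± 0.07 (edgeR adjusted p = 0.00224). With UO126 it was at 0.21 ± 0.07 (edgeR adjusted p = 0.0383), a call that ended without DMSO replicate 1 (edgeR adjusted p = 0.0706), without DMSO replicate 2 (0.212), without UO126 replicate 2 (0.101), without empty vector replicate 1 (0.0552), without empty vector replicate 2 (0.0531), in the DESeq2 Wald test (0.0951), with low counts left unfiltered (0.0501) and with only the 4 libraries compared (0.0888). A near copy, G6pd2, held 56.5 to 97 counts, so some reads may have been split between the copies.

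Pgd, the next oxidative enzyme, stood at 201 and 186 CPM with afatinib and 191 and 196 CPM with UO126, against 155 and 156 CPM with DMSO. All inhibitor libraries were above DMSO, with log2 fold changes of 0.31 ± 0.06 (edgeR adjusted p = 0.00107) and 0.32 ± 0.06 (edgeR adjusted p = 0.00191), and with DMSO against the empty vector it was at -0.10 ± 0.06, which did not pass. Taldo1, a transaldolase of the later steps, was at 0.44 ± 0.07 (edgeR adjusted p = 0.000359) with DMSO against the empty vector and passed in no other comparison. Tkt, the transketolase, was at 0.22 ± 0.06 (edgeR adjusted p = 0.0122), a call that ended without DMSO replicate 2 (edgeR adjusted p = 0.126) and without empty vector replicate 2 (0.0806).

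A gene of heme breakdown had the largest log2 fold change among the 38 genes in the 4 comparisons. Hmox1, heme oxygenase, which opens the heme ring and frees its iron, stood at 103 and 82.6 CPM with afatinib, 45.1 and 48.3 CPM with UO126, 24.7 and 25.2 CPM with DMSO and 22.9 and 20.3 CPM with the empty vector. The afatinib libraries were highest and differed from each other, UO126 was between them and DMSO, and every DMSO library was above the empty vector by a little. Hmox1 was at 1.89 ± 0.11 (edgeR adjusted p = 3.82e-08) with afatinib and 0.90 ± 0.11 (edgeR adjusted p = 6.26e-05) with UO126 against DMSO, and at 0.99 ± 0.10 (edgeR adjusted p = 4.21e-05) with afatinib against UO126, while with DMSO against the empty vector it was at 0.20 ± 0.11 (edgeR adjusted p = 0.17). Blvrb, which reduces biliverdin, passed in no comparison and lay between 4.59 and 7.69 CPM.

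The ferritin genes, whose products store iron, were lower with c-FOS. Ftl1, the light chain, stood at 770.3 and 695 CPM with afatinib, 667 and 713 CPM with UO126, 574 and 557 CPM with DMSO and 671 and 700.5 CPM with the empty vector. Both DMSO libraries were below all others, which overlapped each other. Ftl1 was at -0.28 ± 0.07 (edgeR adjusted p = 0.00394) with DMSO against the empty vector, and at 0.37 ± 0.07 (edgeR adjusted p = 0.000459) with afatinib and 0.29 ± 0.07 (edgeR adjusted p = 0.00513) with UO126 against DMSO. Fth1, the heavy chain, was at -0.34 ± 0.06 (edgeR adjusted p = 0.000841) with DMSO against the empty vector. With UO126 against DMSO it was at -0.19 ± 0.06 (edgeR adjusted p = 0.0419), a call that ended without DMSO replicate 1 (edgeR adjusted p = 0.0742), without DMSO replicate 2 (0.31), without UO126 replicate 1 (0.139), without afatinib replicate 1 (0.0583), without afatinib replicate 2 (0.0578), without empty vector replicate 1 (0.0742), without empty vector replicate 2 (0.0869), in the DESeq2 Wald test (0.0579) and with only the 4 libraries compared (0.086).

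Among detoxifying enzymes and exporters, Osgin1 and Cbr1 fell with c-FOS. Osgin1, a growth inhibitor induced by oxidative stress, stood at 7.40 and 5.91 CPM with afatinib, 7.41 and 10.2 CPM with UO126, 3.48 and 4.55 CPM with DMSO and 10.00 and 9.13 CPM with the empty vector. The DMSO libraries were below all others, the UO126 libraries spanned the empty vector values, and the afatinib libraries lay between DMSO and UO126. Osgin1 was at -1.26 ± 0.19 (edgeR adjusted p = 0.000192) with DMSO against the empty vector and at 1.13 ± 0.19 (edgeR adjusted p = 0.000868) with UO126 against DMSO. With afatinib it was at 0.73 ± 0.20 (edgeR adjusted p = 0.0111), a call that ended without DMSO replicate 1 (edgeR adjusted p = 0.106) and without afatinib replicate 1 (0.0825). Between the inhibitors it was at -0.40 ± 0.17 (edgeR adjusted p = 0.145) and passed without UO126 replicate 1 (edgeR adjusted p = 0.00867) and with low counts left unfiltered (0.0259).

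Cbr1, a carbonyl reductase, stood at 12.6 and 9.90 CPM with afatinib, 10.4 and 11.9 CPM with UO126, 10.2 and 9.15 CPM with DMSO and 16.0 and 17.6 CPM with the empty vector. Both empty vector libraries were above all c-Fos libraries, which overlapped, and its log2 fold change was -0.79 ± 0.13 (edgeR adjusted p = 0.000298) with DMSO against the empty vector. Nqo1, a quinone reductase often used as a readout of NRF2, stood at 16.4 and 16.2 CPM with afatinib, 18.5 and 20.0 CPM with UO126, 14.0 and 12.7 CPM with DMSO and 11.3 and 9.71 CPM with the empty vector. The UO126 libraries were highest and the empty vector libraries lowest. Nqo1 was at 0.53 ± 0.10 (edgeR adjusted p = 0.00202) with UO126 against DMSO. With afatinib it was at 0.29 ± 0.11 (edgeR adjusted p = 0.0427), a call that ended without DMSO replicate 1 (edgeR adjusted p = 0.0588), without DMSO replicate 2 (0.215), without afatinib replicate 1 (0.106), without afatinib replicate 2 (0.105) and in the DESeq2 Wald test (0.137). With DMSO against the empty vector it was at 0.34 ± 0.11 (edgeR adjusted p = 0.0252), a call that ended without DMSO replicate 1 (edgeR adjusted p = 0.138), without empty vector replicate 2 (0.202) and in the DESeq2 Wald test (0.0755).

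Ephx1, an epoxide hydrolase, stood at 126 and 122 CPM with afatinib, 95.8 and 99.0 CPM with UO126 and 116 and 121 CPM with DMSO. The UO126 libraries were the lowest. Ephx1 was at 0.35 ± 0.06 (edgeR adjusted p = 0.00259) with afatinib against UO126, and with UO126 against DMSO it was at -0.28 ± 0.06 (edgeR adjusted p = 0.00466), a call that ended without DMSO replicate 2 (edgeR adjusted p = 0.0757). Abcc4, an exporter of the multidrug resistance family, was at 0.44 ± 0.08 (edgeR adjusted p = 0.000398) with afatinib against DMSO. Against UO126 it was at 0.29 ± 0.07 (edgeR adjusted p = 0.018), a call that ended without afatinib replicate 1 (edgeR adjusted p = 0.0531), without afatinib replicate 2 (0.131), in the DESeq2 Wald test (0.0509) and with only the 4 libraries compared (0.0668). Its relative Abcc1 passed in no comparison and lay between 116 and 141 CPM. In all, 6 of the 38 passed in none of the 4 comparisons, namely Abcc1, Blvrb, Gpx4, Gss, Gstm5 and Sod2.

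Divided by the length deposited with each entry, levels differed widely among the genes. In the empty vector cells Ftl1 was highest at 711 CPM per kb, followed by Fth1 at 521, Txn1 at 424 and Gsto1 at 232 CPM per kb. In c-Fos DMSO cells Txn1 was highest at 679 CPM per kb, with Ftl1 at 587, Gsto1 at 426 and Fth1 at 413 CPM per kb. The lowest of the tested genes in the empty vector cells were Gstm1 at 2.75 and Osgin1 at 4.90 CPM per kb. Such levels are uncertain for genes with near-identical copies, such as the ferritins, Prdx1, Gpx4 and Gstp1. As a case in point, Gapdh, which has many processed copies in the genome, was listed with 121.5 to 170.0 counts per library, against 45759.5 to 67260.0 counts for Actb.

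**Figure D3:**
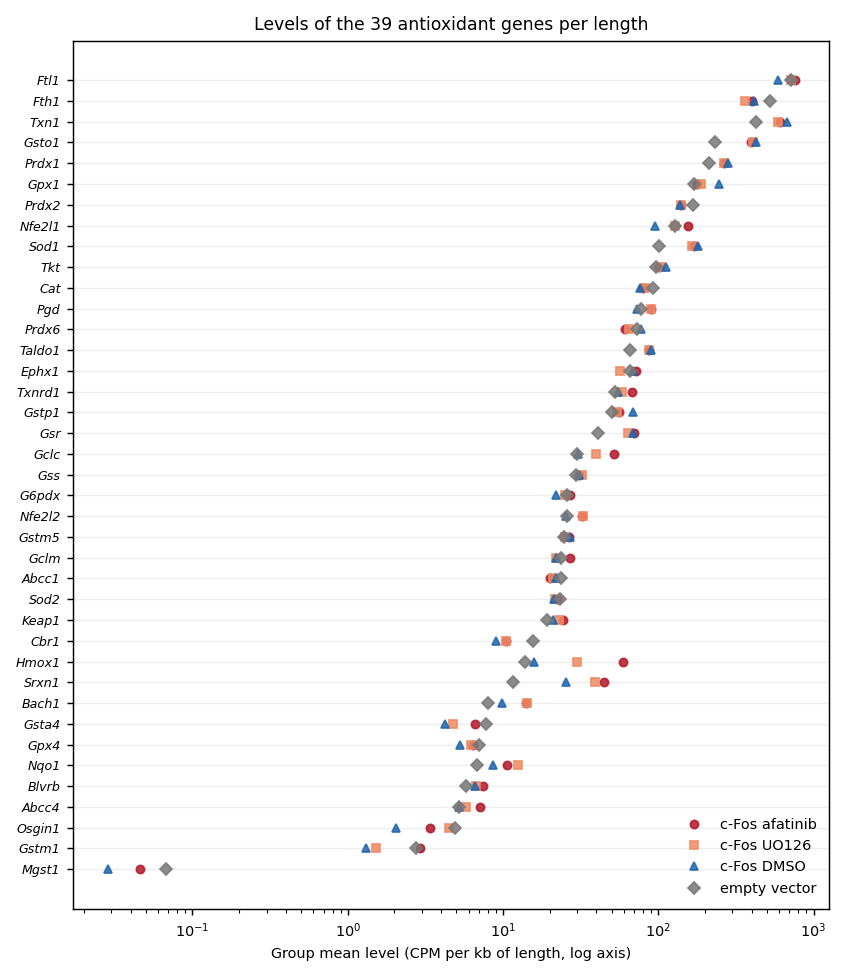
Group mean level of the 39 genes in CPM per kb of deposited length on a log axis, sorted by the level in the empty vector cells, with 1 symbol per group and 2 libraries behind each symbol. Mgst1 has no UO126 symbol because its level there was 0. The largest shift to the right of the DMSO symbol is that of Hmox1 with afatinib and that of Osgin1 with UO126. Gsto1 and Sod1 lie to the right of the empty vector in all 3 c-Fos groups.

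Of 13 genes that supply or break down glutathione 10 were tested, with 0 higher and 7 lower with DMSO against the empty vector, 5 higher and 2 lower with afatinib and 4 higher and 1 lower with UO126 against DMSO, and 3 higher and 1 lower with afatinib against UO126. Of all genes tested, 21.5% were higher and 20.7% lower with DMSO against the empty vector, 21.2% and 21.5% with afatinib and 13.9% and 14.7% with UO126 against DMSO, and 7.14% each way with afatinib against UO126. Their median log2 fold changes were -0.47, 0.52, 0.44 and 0.12 in that order of comparisons. Some of these calls were not firm. With DMSO against the empty vector those of Ggt7, at 7 to 23 counts, and Cth ended in the DESeq2 Wald test (adjusted p = 0.134 and 0.124). Anpep, at 0.33 to 1.33 CPM, lost its higher calls with afatinib and UO126 in that test (DESeq2 adjusted p = 0.0842 and 0.116). Chac1, which cleaves glutathione in the cytosol and is a known target of the stress factor ATF4, stood at 182 and 164 CPM with afatinib, 94.7 and 93.3 CPM with UO126, 29.7 and 29.2 CPM with DMSO and 25.9 and 25.2 CPM with the empty vector. The afatinib libraries were highest, then UO126, then DMSO and the empty vector close together. Chac1 was at 2.55 ± 0.07 (edgeR adjusted p = 1.1e-10) with afatinib and 1.67 ± 0.07 (edgeR adjusted p = 1.86e-08) with UO126 against DMSO, and at 0.88 ± 0.07 (edgeR adjusted p = 4.12e-06) with afatinib against UO126.

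Slc7a11, the cystine importer that feeds glutathione synthesis, stood at 81.9 and 89.9 CPM with afatinib, 60.3 and 46.8 CPM with UO126, 30.0 and 31.9 CPM with DMSO and 46.8 and 41.3 CPM with the empty vector. No DMSO library overlapped another group, and UO126 overlapped the empty vector. Slc7a11 was at 1.47 ± 0.12 (edgeR adjusted p = 2.82e-06) with afatinib and 0.79 ± 0.12 (edgeR adjusted p = 0.00062) with UO126 against DMSO, and at 0.68 ± 0.11 (edgeR adjusted p = 0.00251) with afatinib against UO126. With DMSO against the empty vector it was at -0.51 ± 0.12 (edgeR adjusted p = 0.00554), a call that ended without DMSO replicate 1 (edgeR adjusted p = 0.0633) and without empty vector replicate 1 (0.0632). Cbs, which commits homocysteine to cysteine synthesis, was at -1.62 ± 0.22 (edgeR adjusted p = 6.66e-05) with DMSO against the empty vector. Oplah, which recycles oxoproline to glutamate, was at -1.50 ± 0.17 (edgeR adjusted p = 1.24e-05) there. Both were low. Cbs stood at 1.31 and 1.08 CPM with DMSO and 3.85 and 3.50 CPM with the empty vector. For Oplah these were 3.27 and 2.50 CPM and 8.14 and 8.25 CPM.

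Of 17 other genes linked to NRF2, not all of them known to be switched on by it, 16 were tested. With DMSO against the empty vector 4 were higher and 4 lower. Against DMSO 6 were higher and 2 lower with afatinib, and 2 higher and 2 lower with UO126. With afatinib against UO126 3 were higher and 2 lower. The counts with DMSO against the empty vector are near the 21.5% higher and 20.7% lower of all genes, and those with UO126 near 13.9% and 14.7%. With afatinib all genes stood at 21.2% higher and 21.5% lower against DMSO, and at 7.14% each way against UO126. Their medians were -0.14, 0.21, 0.12 and 0.04. Sqstm1, the autophagy receptor p62 that binds KEAP1, stood at 696 and 652 CPM with afatinib, 490.4 and 501 CPM with UO126, 317 and 304 CPM with DMSO and 285 and 282 CPM with the empty vector. Both inhibitors were above DMSO and the empty vector, with afatinib highest, and Sqstm1 was at 1.12 ± 0.06 (edgeR adjusted p = 1.56e-08) with afatinib and 0.67 ± 0.06 (edgeR adjusted p = 3.22e-06) with UO126 against DMSO. Trim16, a tripartite motif protein known to act with p62, went the other way, at -1.85 ± 0.08 (edgeR adjusted p = 4.22e-09) with afatinib and -0.97 ± 0.08 (edgeR adjusted p = 1.5e-06) with UO126 against DMSO. With DMSO against the empty vector Akr1b8, an aldo-keto reductase, was at 1.88 ± 0.13 (edgeR adjusted p = 6.78e-08). Aldh3a1, an aldehyde dehydrogenase, was at -1.48 ± 0.12 (edgeR adjusted p = 2.72e-07) there. Txnip, which binds and inhibits thioredoxin, was at -1.42 ± 0.13 (edgeR adjusted p = 3.04e-05) in the same comparison. Against DMSO Txnip was at -0.70 ± 0.13 (edgeR adjusted p = 0.00452) with UO126 and at 0.18 (edgeR adjusted p = 0.287) with afatinib. Between afatinib and UO126 it was at 0.89 ± 0.13 (edgeR adjusted p = 0.00317).

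Among 6 genes of small MAF proteins (Maff, Mafg and Mafk) and of relatives of NRF2 and BACH1 (Nfe2l3, Nfe2 and Bach2), all but Nfe2 were tested. With DMSO against the empty vector 3 were higher and 1 lower, against 21.5% and 20.7% of all genes. With either inhibitor against DMSO 1 was higher and 2 were lower, against 21.2% and 21.5% of all genes with afatinib and 13.9% and 14.7% with UO126. Between afatinib and UO126 0 were higher and 1 lower, against 7.14% of all genes each way. Their medians were 0.38, 0.02, -0.11 and 0.03. Maff, a small MAF protein, stood at 3.51 and 3.03 CPM with afatinib, 6.70 and 6.83 CPM with UO126, 21.7 and 20.6 CPM with DMSO and 8.22 and 7.67 CPM with the empty vector. Both DMSO libraries were far above all others and the afatinib libraries lowest. Maff was at 1.41 ± 0.11 (edgeR adjusted p = 2.03e-07) with DMSO against the empty vector, at -2.70 ± 0.12 (edgeR adjusted p = 4.25e-09) with afatinib and -1.65 ± 0.11 (edgeR adjusted p = 2.65e-07) with UO126 against DMSO, and at -1.05 ± 0.14 (edgeR adjusted p = 0.000324) with afatinib against UO126. Bach2, a repressor related to BACH1, was the other gene lower with both inhibitors against DMSO, at -0.89 ± 0.16 (edgeR adjusted p = 0.000815) with afatinib and -0.64 ± 0.16 (edgeR adjusted p = 0.00897) with UO126. The call with UO126 ended without DMSO replicate 1 (edgeR adjusted p = 0.125), where its log2 fold change was -0.41. Mafk, another small MAF protein, was at 0.62 ± 0.07 (edgeR adjusted p = 1.11e-05) with DMSO against the empty vector, and Nfe2l3, the gene of NRF3, was at -1.82 ± 0.23 (edgeR adjusted p = 2.63e-05) there and at 1.42 ± 0.24 (edgeR adjusted p = 0.000309) with afatinib against DMSO.

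Of 8 genes of NRF2 turnover, all tested, 0 were higher and 4 lower with DMSO against the empty vector, 3 were higher and 0 lower with either inhibitor against DMSO, and 0 were called between the inhibitors. All genes stood at 21.5% higher and 20.7% lower in the c-FOS comparison, at 21.2% and 21.5% with afatinib and 13.9% and 14.7% with UO126, and at 7.14% each way between the inhibitors. Their medians were -0.18, 0.16, 0.12 and 0.04. Amer1, whose human counterpart binds KEAP1, was at -0.98 ± 0.10 (edgeR adjusted p = 2.64e-06) with DMSO against the empty vector and at 0.48 ± 0.10 (edgeR adjusted p = 0.00141) with afatinib against DMSO. Btrc, an adaptor that directs NRF2 to degradation after phosphorylation, was at -0.59 ± 0.09 (edgeR adjusted p = 0.000189) with DMSO against the empty vector. Gsk3b, the kinase of that step, was at 0.49 ± 0.08 (edgeR adjusted p = 0.000217) with afatinib against DMSO. The 3 genes higher with UO126 were Btrc, Amer1 and Gsk3b, at 0.31, 0.30 and 0.25. Without DMSO replicate 2 they were at 0.33, 0.22 and 0.22. The UO126 calls of Btrc and Amer1 ended in the DESeq2 Wald test (adjusted p = 0.0985 and 0.0666). Both also ended with only the 4 libraries compared (edgeR adjusted p = 0.0621 and 0.0517). Fbxw11, also higher with afatinib, lost that call in the DESeq2 Wald test (adjusted p = 0.0759).

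Of 17 other glutathione S-transferases 8 were tested, with 1 higher and 3 lower with DMSO against the empty vector, 0 called with afatinib and 1 higher and 0 lower with UO126 against DMSO, and 1 higher and 0 lower with afatinib against UO126. Against this, 21.5% of all genes were higher and 20.7% lower in the c-FOS comparison, 21.2% and 21.5% with afatinib, 13.9% and 14.7% with UO126, and 7.14% each way between the inhibitors. Their medians were 0.08, 0.10, 0.09 and -0.04. Mgst3, a membrane-bound enzyme of the group, stood at 57.4 and 58.1 CPM with afatinib, 50.2 and 46.8 CPM with UO126, 51.5 and 55.3 CPM with DMSO and 12.4 and 13.6 CPM with the empty vector. All c-Fos libraries were far above the empty vector, and Mgst3 was at 2.04 ± 0.09 (edgeR adjusted p = 7.13e-10) with DMSO against the empty vector. Gsta3, of the alpha class, moved the other way, with 1.69 and 2.39 CPM with DMSO and 14.0 and 14.5 CPM with the empty vector and a log2 difference of -2.81 ± 0.18 (edgeR adjusted p = 4.75e-08).

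Of 22 other peroxidases, thioredoxins, glutaredoxins and related genes, which include Sesn1, Sesn2, Sesn3, Msra and Msrb1, 18 were tested. Of these, 4 were higher and 5 lower with DMSO against the empty vector, and 4 and 5 with afatinib against DMSO. With UO126 against DMSO 4 were higher and 2 lower, and with afatinib against UO126 2 were higher and 1 lower. With c-FOS and with afatinib these counts are near the shares of all genes, which were 21.5% higher and 20.7% lower, and 21.2% and 21.5%. For UO126 the shares of all genes were 13.9% and 14.7%, and between the inhibitors 7.14% each way. Their medians were -0.02, -0.02, -0.01 and -0.01. The 4 genes higher with afatinib against DMSO were Sesn1, Sesn2, Sesn3 and Gpx2, and the same 4 were higher with UO126. With UO126 the calls of Sesn1 and Sesn3, at 0.31 and 0.38, were less firm. That of Sesn1 ended in the DESeq2 Wald test (adjusted p = 0.0517). Without DMSO replicate 1 they were at 0.28 and 0.43, and without DMSO replicate 2 at 0.36 and 0.35. Sesn2, a sestrin, one of a family of stress-induced regulators of growth signalling, stood at 29.8 and 25.6 CPM with afatinib, 16.9 and 18.5 CPM with UO126, 8.76 and 6.08 CPM with DMSO and 10.7 and 10.9 CPM with the empty vector. The afatinib libraries were highest, then UO126, and DMSO was lowest. Sesn2 was at 1.90 ± 0.14 (edgeR adjusted p = 4.16e-07) with afatinib and 1.25 ± 0.15 (edgeR adjusted p = 5.12e-05) with UO126 against DMSO, and at 0.65 ± 0.12 (edgeR adjusted p = 0.00431) between the inhibitors, a call that ended without afatinib replicate 1 (edgeR adjusted p = 0.0506). Its relative Sesn3 stood at 16.5 and 15.7 CPM with DMSO and 35.8 and 28.7 CPM with the empty vector, and was at 0.97 ± 0.11 (edgeR adjusted p = 1.12e-05) with afatinib against DMSO. Gpx2, another glutathione peroxidase, was at 0.52 ± 0.07 (edgeR adjusted p = 9.66e-05) with afatinib and 0.38 ± 0.08 (edgeR adjusted p = 0.00215) with UO126 against DMSO, and Msra, which repairs oxidised methionine, was at 0.98 ± 0.18 (edgeR adjusted p = 0.000711) with DMSO against the empty vector.

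Of 9 genes of iron handling and ferroptosis, all tested, 0 were higher and 2 lower with DMSO against the empty vector, 3 higher and 2 lower with afatinib and 2 higher and 1 lower with UO126 against DMSO, and 2 higher and 0 lower with afatinib against UO126. The 2 lower genes with c-FOS are near the 20.7% lower of all genes, of which 21.5% were higher. All genes were at 21.2% higher and 21.5% lower with afatinib, 13.9% and 14.7% with UO126, and 7.14% each way between the inhibitors. Their medians were 0.01, 0.06, 0.03 and 0.03. Steap3, an endosomal reductase of iron, stood at 112 and 114 CPM with afatinib, 61.6 and 67.1 CPM with UO126, 43.4 and 44.9 CPM with DMSO and 42.1 and 44.7 CPM with the empty vector. The afatinib libraries were highest and DMSO overlapped the empty vector, and Steap3 was at 1.36 ± 0.07 (edgeR adjusted p = 1.24e-08) with afatinib and 0.54 ± 0.07 (edgeR adjusted p = 0.000105) with UO126 against DMSO.

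Slc40a1, ferroportin, which exports iron from cells, stood at 20.0 and 21.4 CPM with afatinib, 12.7 and 9.32 CPM with UO126, 8.33 and 8.30 CPM with DMSO and 28.1 and 25.0 CPM with the empty vector. The empty vector libraries were highest and the DMSO libraries lowest. Slc40a1 was at -1.68 ± 0.13 (edgeR adjusted p = 3.98e-07) with DMSO against the empty vector, at 1.32 ± 0.14 (edgeR adjusted p = 6.31e-06) with afatinib against DMSO and at 0.91 ± 0.13 (edgeR adjusted p = 0.000503) with afatinib against UO126. Tfrc, the transferrin receptor that brings iron in, stood at 152 and 178 CPM with afatinib, 194 and 159 CPM with UO126, 295 and 320.1 CPM with DMSO and 268 and 268 CPM with the empty vector. Inhibitor libraries were all below DMSO and the empty vector, and Tfrc was at -0.90 ± 0.10 (edgeR adjusted p = 3.64e-05) with afatinib and -0.80 ± 0.10 (edgeR adjusted p = 0.000193) with UO126 against DMSO.

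**Figure D4:**
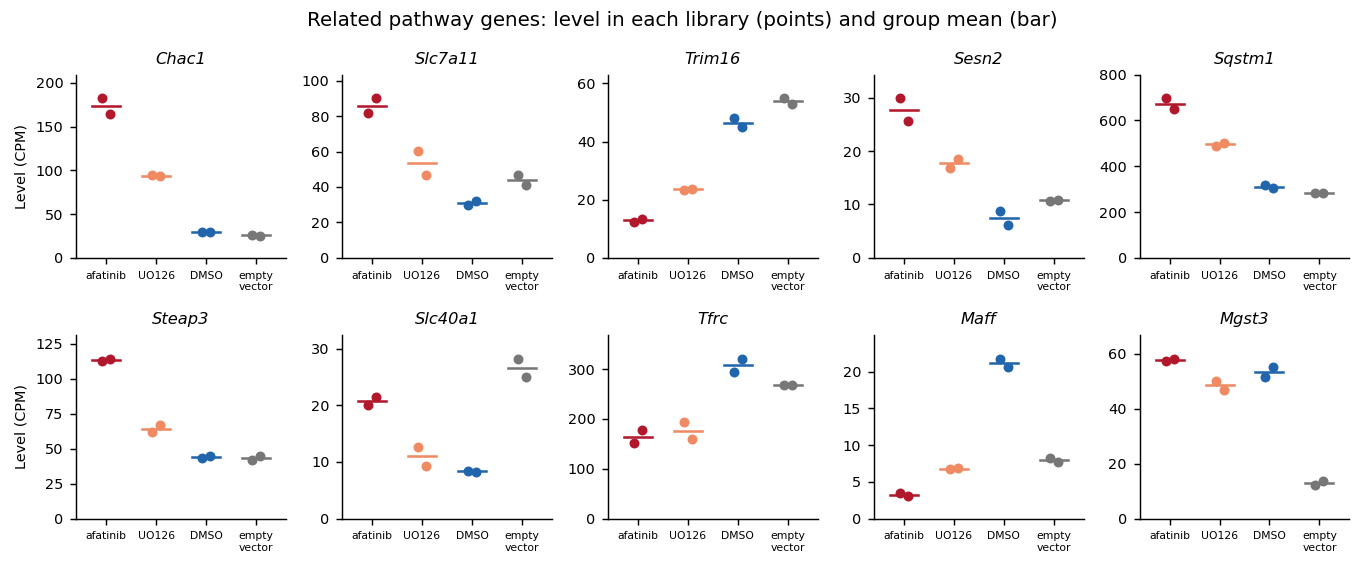
Level in CPM of 10 related genes, chosen for display after their values were seen, with 1 point per library, a bar at the group mean and an axis that starts at 0. Groups run from afatinib, UO126 and DMSO, all with c-FOS, to the empty vector. Chac1, Sqstm1 and Steap3 are highest in the afatinib libraries, Maff is highest in the DMSO libraries, and Mgst3 is higher in all 6 c-Fos libraries than in the empty vector libraries.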

How the data were processed

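Libraries were prepared with the TruSeq RNA kit, per the labels' protocols. This kit does not record strand, so overlapping genes on opposite strands cannot be told apart. TopHat and then HOMER were used, per the series design text. The submitters' processing notes also list mm9 and DESeq2, without versions or roles. The authors deposited expected counts, not normalized, in multiples of 0.5. From 47.9% to 49.5% of a library's values above 0 were fractional. Of 24909 entries, 26 whose symbols had become dates were left out (0.218% to 0.246% of counts). Rn45s, the ribosomal RNA precursor, took 1.62% to 4.08% of a library.

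Counts were rounded and fitted with edgeR 4.0.16 (R 4.3.3). Its expression filter, set to at least 10 counts and 15 in total, kept 12879 genes, and TMM scaled the libraries. The robust quasi-likelihood test was run on all 8 libraries, with a coefficient for each group, 4 residual degrees of freedom and a common biological coefficient of variation of 0.0596. Tests were two-sided, with Benjamini-Hochberg adjustment over all genes tested in a comparison and a threshold of 0.05. The error of each log2 fold change is an SE derived from the F statistic. Replicate libraries differed by a chi-square of 4.98 to 26.0 per degree of freedom, so none was a repeat of another. The UO126 pair differed most, at 26.0, against 9.42 with afatinib, 8.77 with DMSO and 4.98 with the empty vector. Rn45s was among the genes in these figures. Since all groups share 1 estimate of the spread, the UO126 pair also enters the p-values of comparisons without UO126. The procedure was also run on simulated counts drawn with its own fitted spread, which cannot show whether the model suits these data. Alternatives were DESeq2 1.42.0, other filters, a fit to fewer libraries, a replicate block, no robust estimation, an adjusted p under 0.01, and omission of Rn45s or of each library.

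The genes and lists were chosen with earlier results of these data known. Values for every library are given for Nfe2l2, Keap1, Bach1, Nfe2l1 and each of the 39 genes called with an absolute log2 fold change of at least 0.58 in any comparison, and for some others chosen after their values were seen. Of each further list, up to 3 called genes of largest change per comparison could be named. No coordinates of the counted genes are given, since the genome in hand was not mm9. Promoter sequences are from RefSeq, build GRCm38.p6. One marker gene of the keratinocyte and basal cell carcinoma list is not reported here and is not in its sum.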

Additional observations from a re-analysis of the deposited data

How the results depend on the processing

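Of 2466 values of single genes under alternatives, 2376 kept their side of the threshold, 78 lost a call and 12 gained one. None of the called ones changed sign. Some that were not called did, such as Blvrb with afatinib against DMSO, at -0.15 to 0.47 over the alternatives. Calls held in every alternative for 18 of 22 genes with DMSO against the empty vector, 16 of 20 with afatinib and 11 of 17 with UO126 against DMSO, and 3 of 9 with afatinib against UO126. A gene left untested by an alternative was judged on the others, as was Gstm1 under the filter of at least 5 CPM in 2 libraries. The threshold of 0.01 was not among the alternatives for these single genes. Counts moved by more than 1.5 times as follows. With each library left out in turn, the lower genes numbered 2 to 5 with afatinib and 1 to 5 with UO126 against DMSO, and with afatinib against UO126 the higher genes numbered 3 to 9 and the lower ones 0 to 1. At an adjusted p under 0.01 there were 2 lower genes with UO126 against DMSO and 4 higher genes with afatinib against UO126. With only the 4 libraries compared, 5 were higher with afatinib against UO126, and with no low-count filter 1 was lower, Osgin1. The cause of these differences was not tested, beyond the fewer libraries and stricter threshold that the alternatives impose. The replicate numbers were not stated to pair the libraries, and deviations of same-numbered libraries correlated at -0.21 to 0.12 between groups. With a replicate block 12 and 10 genes were higher and lower with DMSO against the empty vector, 16 and 3 with afatinib and 10 and 5 with UO126 against DMSO, and 7 and 0 with afatinib against UO126. The block ended the calls of Nqo1 with afatinib (edgeR adjusted p = 0.0569) and of G6pdx (0.066) and Fth1 (0.0772) with UO126 against DMSO, and of Gsta4 (0.067) and Txnrd1 (0.0657) with afatinib against UO126. With the crossed replicate block, chosen after seeing the data, 10 and 0 were higher and lower with afatinib against UO126. With DESeq2 size factors the median of all genes moved by at most 0.0127 on the log2 scale. Genes under about 10 CPM, such as Gstm1, Gsta4, Gpx4 and Osgin1, rest on few counts and have the widest errors.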
